A study of Mus musculus with 8 samples.

Results

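The long intergenic noncoding RNAs (lincRNAs) that were measurably expressed in neonatal mouse ventricles were described here, comparing hearts without NAE1 in cardiomyocytes with control hearts. Members were chosen by annotation and level, with named exceptions and with earlier results of these data known. Each distinct gene that the count table annotates as lincRNA was taken where its mean raw count over the 8 libraries was 50 or more, which 73 genes met. Of these, *Gm42418* and *H19* were left out by name, which left 71 of the 40690 genes of the table. *Meg3*, also left out by name, had a mean count of 29.5 and so lay below the limit. The table has 2619 lincRNA genes, of which 1081 had a count in at least 1 library. The tested animals, NAE1CKO, carried a NAE1 Flox allele and αMHC-Cre, a Cre recombinase driven by a cardiomyocyte promoter, and the animals set against them, CTL, were littermate controls labelled wt. The other cell types of the NAE1CKO ventricle, in which this promoter is silent, retain NAE1. All mice were on a C57BL/6J background and 1 day old, and males and females were not separated. Polyadenylated RNA of the ventricles was sequenced, with 1 library for each of 4 NAE1CKO and 4 CTL pups. Libraries are named by their titles. Those of NAE1CKO are KO-443-3 with KO-443-5 and KO-453-6 with KO-453-7. Those of CTL are WT-443-7 with WT-443-8 and WT-453-3 with WT-453-5. What the first title number stands for, which pairs the KO-443 with the WT-443 and the KO-453 with the WT-453 libraries, is not said in the sources used here. Values per library follow this order throughout.

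LincRNAs are transcribed from their own loci between protein-coding genes and are mostly spliced and polyadenylated much like mRNAs, but carry no long reading frame. Some act as scaffolds in the nucleus, such as *Neat1* in paraspeckles and *Xist* on the inactive X chromosome, some are hosts from which small nucleolar RNAs (snoRNAs) or microRNAs are cut, and many start beside the promoter of a protein-coding gene and are transcribed away from it. NAE1 is a subunit of the enzyme that activates NEDD8, a ubiquitin-like protein whose attachment to cullins switches on cullin-RING ubiquitin ligases. Substrates of these ligases include the transcription factors NRF2, which acts in the oxidative stress response with small MAF proteins, and HIF1α, which acts in hypoxia.

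Library totals were 16304420 to 18593509 counts in NAE1CKO and 13932821 to 18056322 counts in CTL. *Nae1* averaged 11.97 ± 1.24 CPM in NAE1CKO and 23.4 ± 0.771 CPM in CTL (CPM, counts scaled to an equal library size after TMM normalisation; mean ± SD, n = 4 each), and each NAE1CKO library was below each CTL library. All 8 cardiomyocyte markers had counts, as the ventricle label requires. Summed over them the level was 45497 to 48885 CPM in NAE1CKO and 58543 to 71011 CPM in CTL, with 5 lower and none higher at an adjusted p under 0.05. All 6 macrophage markers were higher, with sums of 80.0 to 112 CPM in NAE1CKO and 54.5 to 64.1 CPM in CTL. Of 5 fibroblast markers 3 were lower and 2 did not pass. Their sums overlapped, at 1699 to 2008 CPM in NAE1CKO and 1818 to 2211 CPM in CTL. Of 4 mural markers 2 were lower and 2 did not pass, with sums of 359 to 380 CPM in NAE1CKO and 412 to 439 CPM in CTL. The part of these shifts in the lincRNA values was not tested, and in whole ventricles fewer cells of a type and less RNA per cell cannot be told apart. One CTL library, WT-453-5, stood apart in *Gm42418*, an rRNA-related locus left out of the members, which took 12.8% of its counts against 3.09% to 4.62% in the other libraries.

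The members differed widely in level. *Malat1* held 43.6% of all member counts, and the members together made up 0.210% to 0.295% of the counts in NAE1CKO libraries and 0.246% to 0.319% in CTL libraries. Mean levels over the 8 libraries ran from 2.97 to 1155 CPM with a median of 6.45 CPM, and 49 members were under 10 CPM. By CPM, *Malat1* was followed by *1700020I14Rik* at 303 CPM, *Gm26917* at 267 CPM, *Xist* at 138 CPM, *1810058I24Rik* at 111 CPM, *Neat1* at 76.9 CPM, *C330006A16Rik* at 52.6 CPM and *2310015A10Rik* at 31.5 CPM. The order changes when levels are divided by the exon length of the annotation. Per kilobase of exon, *Malat1* still stood first at 165 CPM, followed by *Gm26917* at 80.3, *1810058I24Rik* at 39.7 and *1700020I14Rik* at 36.5 CPM, whereas *Xist* had 7.69 and *Neat1* 3.70 CPM. Since the members were selected on their mean count, these levels are a description. The members just inside the limit were *Gm26798*, *Gm14230* and *Gm15328*, with mean counts of 50.6, 51.0 and 51.3, and the lincRNAs just outside it were *Gm28730*, *2700046G09Rik* and *E330017L17Rik*, with 48.5, 47.8 and 46.6.

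Of the 71 members, 34 differed between the genotypes. All 71 passed the filter on low counts, and at an adjusted p under 0.05 (edgeR quasi-likelihood test, Benjamini-Hochberg over the 13622 genes tested) 12 were higher and 22 were lower in NAE1CKO, while 37 did not pass. Among all genes tested 18.6% were higher and 17.6% lower at this threshold. Among the 11386 genes tested that also had a mean count of 50 or more, 20% were higher and 19.1% lower, against 16.9% and 31.0% of the members. Past 1.5-fold, the fold change that the study used for its calls, 8 members (11.3%) were higher and 11 (15.5%) were lower. The corresponding shares were 7.31% and 5.56% of all genes tested, and 6.46% and 4.76% of those with a mean count of 50 or more. The members had a median mean count of 107, against 465 for the genes with 50 or more, so the 2 sets were not matched in level. The median log2 fold change of NAE1CKO over CTL was -0.14 over the 71 members and 0.00 over all genes tested. The members' median was -0.22 without WT-443-8 and, with libraries scaled by size alone, -0.052 beside 0.080 over all genes tested. With a limit of 100 on the mean count it was -0.026, and 2 of 38 members were then lower past 1.5-fold.

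**Figure D1:**
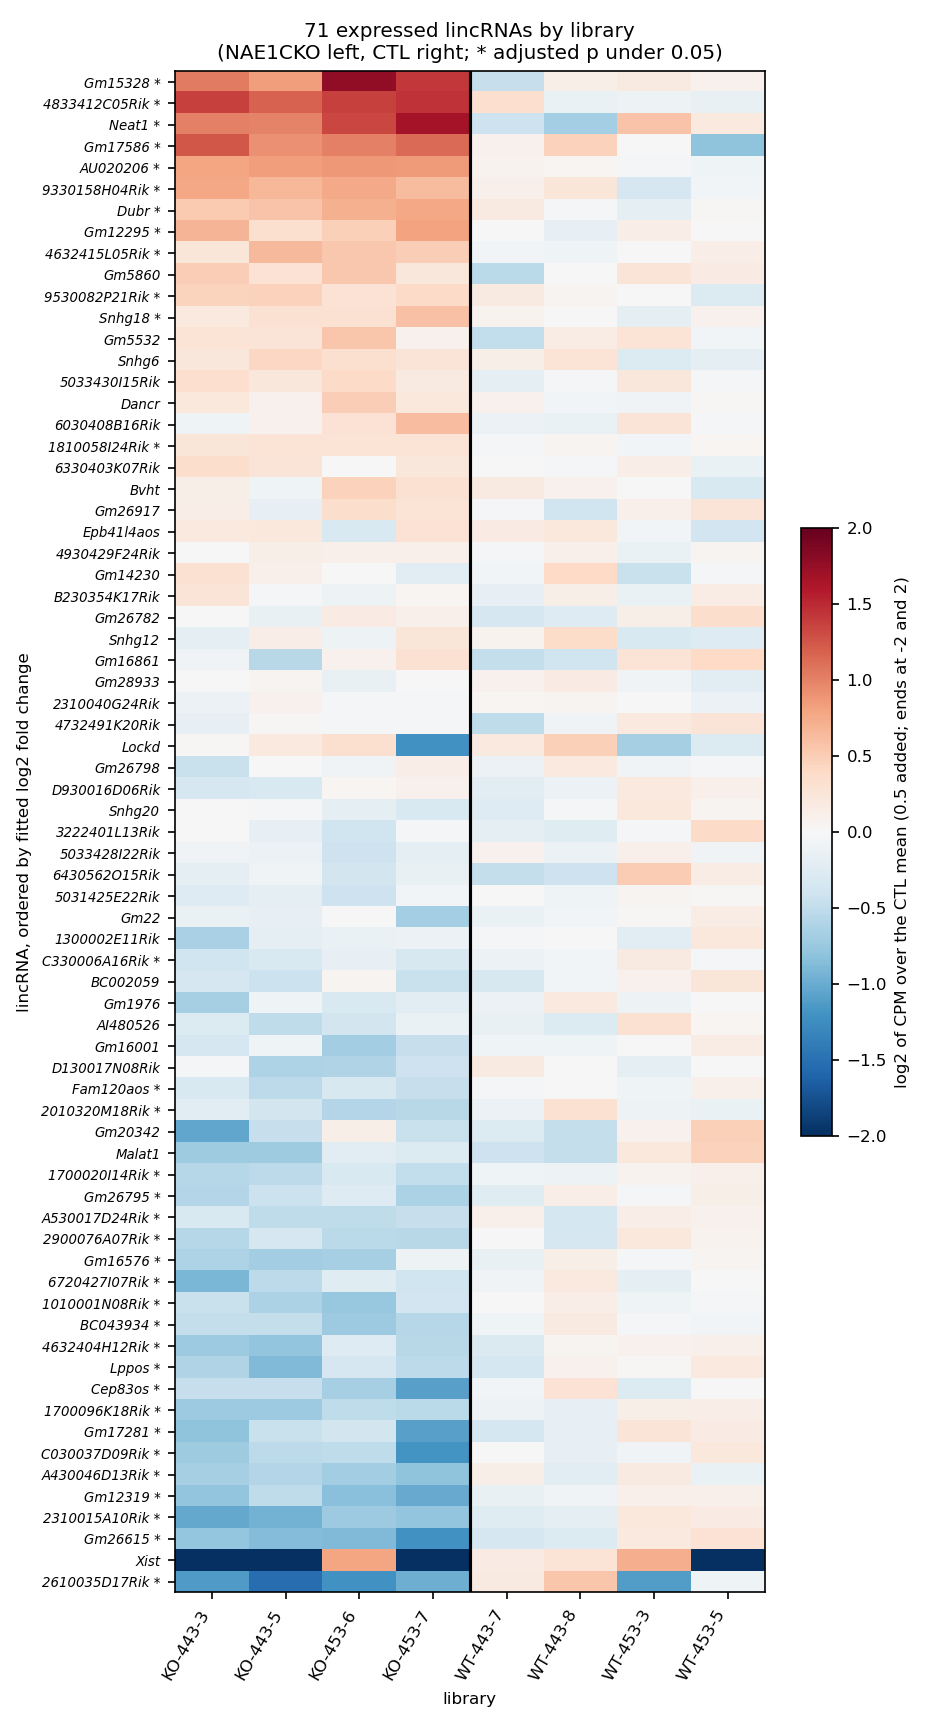
Each row is 1 of the 71 lincRNAs and each column 1 library, with the 4 NAE1CKO libraries left of the line and the 4 CTL libraries right of it; colours give the log2 of the CPM over the CTL mean, and stars mark an adjusted p under 0.05. The 8 members higher past 1.5-fold fill the upper rows in red in all 4 NAE1CKO libraries, and *Xist* near the bottom is split by library and not by genotype.

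The per-library values separated the groups for 30 of the 71 members and overlapped for 41. All 4 NAE1CKO libraries were above all 4 CTL libraries for 12 members (16.9%) and below them for 18 (25.4%), while this held for 20% and 19.3% of the genes with a mean count of 50 or more. Of the 34 members that passed, 5 had groups that overlapped, namely *4632404H12Rik*, *2610035D17Rik*, *Lppos*, *Gm16576* and *A530017D24Rik*, each with 1 library inside the range of the other group. The changes were modest in size. The largest were a log2 fold change of 1.56 for *Gm15328* and of -1.33 for *2610035D17Rik*, and the members that passed had medians of 0.71 among those higher and -0.60 among those lower. Calls were found at all levels. Of the 49 members under 10 CPM 15 were lower and 5 higher, of the 17 from 10 to under 100 CPM 6 were lower and 6 higher, and of the 5 at 100 CPM or more 1 was lower and 1 higher. The shares over all genes at these levels were not computed, so the levels cannot be compared with them.

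**Figure D2:**
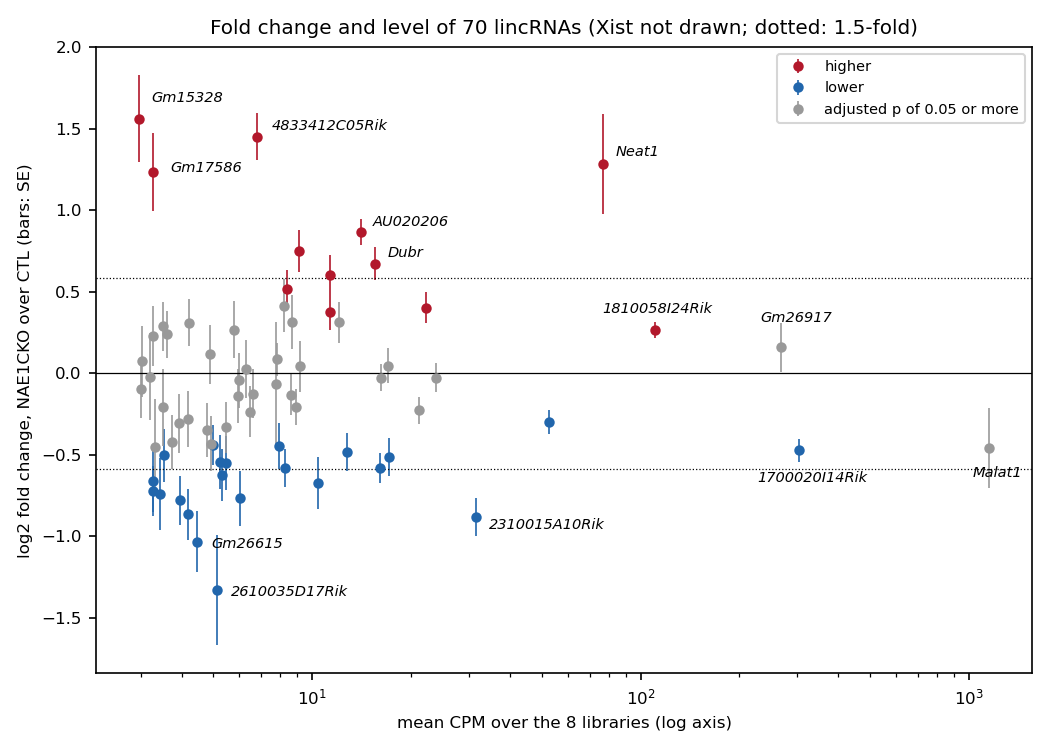
Fitted log2 fold change of NAE1CKO over CTL, with its standard error, against the mean CPM of each lincRNA on a log axis, with red for higher, blue for lower and grey for members that did not pass. Of the 4 members drawn above 100 CPM, only *1810058I24Rik* (higher) and *1700020I14Rik* (lower) passed; *Xist* is not drawn.

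The promoters of 6 members are printed because these are the members with the smallest adjusted p past 1.5-fold, 3 higher and 3 lower, whose start in RefSeq lies within 200 bases of the start in the GENCODE annotation. Each window runs from 250 bases before to 50 bases after the start, 5′ to 3′ on the strand of the gene, from RefSeq on GRCm38.p6. Capitals mark matches to 3 motifs searched on both strands, the antioxidant response element TGACNNNGC, the core ACGTG of the hypoxia response element, and the cAMP response element TGACGTCA. The first 3 lines are members that were higher in NAE1CKO and the other 3 are members that were lower.
AU020206, chr7:75782071-75782370 (- strand): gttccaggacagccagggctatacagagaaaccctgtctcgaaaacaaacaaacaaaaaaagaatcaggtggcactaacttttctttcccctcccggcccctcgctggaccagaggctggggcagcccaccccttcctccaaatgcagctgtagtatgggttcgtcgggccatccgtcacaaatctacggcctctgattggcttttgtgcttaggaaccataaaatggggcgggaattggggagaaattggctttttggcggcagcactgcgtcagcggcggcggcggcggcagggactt
Dubr, chr16:50732724-50733023 (- strand): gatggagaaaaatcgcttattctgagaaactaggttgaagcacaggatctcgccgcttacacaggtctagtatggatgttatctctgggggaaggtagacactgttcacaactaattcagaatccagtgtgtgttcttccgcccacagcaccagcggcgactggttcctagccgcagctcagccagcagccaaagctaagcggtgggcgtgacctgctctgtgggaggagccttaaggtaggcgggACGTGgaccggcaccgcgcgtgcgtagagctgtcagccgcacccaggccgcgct
Gm17586, chr11:120633500-120633799 (+ strand): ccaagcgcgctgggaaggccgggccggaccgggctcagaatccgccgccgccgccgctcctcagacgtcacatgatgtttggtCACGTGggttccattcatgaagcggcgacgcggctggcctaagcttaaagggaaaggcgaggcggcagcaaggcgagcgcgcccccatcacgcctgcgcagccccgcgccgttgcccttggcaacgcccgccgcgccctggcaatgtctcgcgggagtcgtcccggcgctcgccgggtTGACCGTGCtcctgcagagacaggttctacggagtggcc
2310015A10Rik, chr12:80132795-80133094 (- strand): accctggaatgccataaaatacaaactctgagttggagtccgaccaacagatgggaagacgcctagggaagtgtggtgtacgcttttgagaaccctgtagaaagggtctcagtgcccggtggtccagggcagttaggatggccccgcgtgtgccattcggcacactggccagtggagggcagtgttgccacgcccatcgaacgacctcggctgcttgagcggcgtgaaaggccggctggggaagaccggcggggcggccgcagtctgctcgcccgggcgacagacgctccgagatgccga
1700096K18Rik, chr5:25529768-25530067 (+ strand): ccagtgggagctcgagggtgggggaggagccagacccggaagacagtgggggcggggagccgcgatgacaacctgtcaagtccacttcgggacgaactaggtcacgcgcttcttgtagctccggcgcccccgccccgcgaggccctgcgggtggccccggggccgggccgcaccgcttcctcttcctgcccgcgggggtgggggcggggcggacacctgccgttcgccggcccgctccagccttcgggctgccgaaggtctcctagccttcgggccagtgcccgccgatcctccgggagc
C030037D09Rik, chr11:88718393-88718692 (+ strand): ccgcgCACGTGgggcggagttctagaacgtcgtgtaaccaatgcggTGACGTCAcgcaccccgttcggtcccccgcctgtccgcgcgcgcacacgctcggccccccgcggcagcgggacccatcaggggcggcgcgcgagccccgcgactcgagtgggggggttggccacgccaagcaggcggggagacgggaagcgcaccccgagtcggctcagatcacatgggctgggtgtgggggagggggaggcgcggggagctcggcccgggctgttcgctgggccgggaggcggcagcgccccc
Of the 6 windows, the antioxidant response element was matched in that of *Gm17586* only, from position 12 counted from the start, and the cAMP response element in that of *C030037D09Rik* only, from position -204. The ACGTG core was found in *Dubr* at position -4, and in *Gm17586* and *C030037D09Rik* as the palindrome CACGTG, which holds the core on both strands. The windows of *AU020206*, *2310015A10Rik* and *1700096K18Rik* held none of the 3. Of 27025 RefSeq promoter windows of the same length, 12.5% held the antioxidant element, 19.7% the ACGTG core and 1.88% the cAMP element. Among the 47 members with a window, 5, 14 and 3 held them, in the same order of motifs. The antioxidant element was in 2 of the 9 that were higher and 0 of the 14 that were lower, the ACGTG core in 4 and 3, and the cAMP element in 0 and 1. The limit of 200 bases on the start was not applied to these counts. RefSeq and GENCODE starts lay 77965 bases apart for *Gm12295*, which was 1 of the 4 with the core. They lay 6002, 1957 and 643 bases apart for *9530082P21Rik*, *9330158H04Rik* and *4833412C05Rik*, also higher, and 978 for *C330006A16Rik*, which was lower. A match of letters is a description and shows no binding.

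*Neat1* and *Malat1* lie side by side on chromosome 19 (5824708 to 5845478 and 5795690 to 5802672, both on the minus strand of GRCm38) and code for abundant nuclear RNAs. An RNA of *Neat1* is the scaffold of paraspeckles, and *Malat1* gathers in nuclear speckles with splicing factors. The counts are of polyadenylated RNA per gene and do not separate transcript forms, and paraspeckles were not measured. *Neat1* had 90.3, 89.4, 114 and 143 CPM in the NAE1CKO libraries, against 33.3, 27.8, 66.8 and 51.1 CPM in the CTL libraries. The lowest NAE1CKO library was above the highest CTL library, and the KO-453 libraries had more than the KO-443 ones and the WT-453 libraries more than the WT-443 ones. *Neat1* was higher by a log2 fold change of 1.28 ± 0.31 (SE, 2.44-fold, adjusted p = 0.0154).

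*Malat1* had 815, 819, 1159 and 1101 CPM in NAE1CKO, against 1003, 963, 1540 and 1843 CPM in CTL. The groups overlapped when pooled, but within each title number both NAE1CKO libraries were below both CTL libraries. The log2 fold change was -0.46 ± 0.24 with an adjusted p of 0.189, and -0.42 with an adjusted p of 8.4e-04 in the edgeR fit with title number as a block. For *Malat1* the difference of mean log2 CPM was -0.27 between the KO-443 and WT-443 libraries and -0.58 between the KO-453 and WT-453 libraries. For *Neat1* these differences were 1.56 and 1.12. The protein-coding gene nearest to *Neat1*, *Frmd8*, was also higher (log2 fold change 0.85, adjusted p = 1.3e-05).

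Of 24 genes of paraspeckle proteins, all tested, 1 was higher, 3 were lower and 20 did not pass, where 18.6% of all genes tested were higher and 17.6% lower. *Tardbp*, which codes for the RNA-binding protein TDP-43, was higher by 0.27 ± 0.05 on the log2 scale (SE, adjusted p = 0.00198), and *Ahdc1*, *Ss18l1* and *Hnrnph3* had log2 fold changes of -0.31, -0.30 and -0.24 (adjusted p = 0.00539, 0.022 and 0.0277). *Hnrnpa1* and *Taf15* had values of 0.34 and -0.20 with adjusted p of 0.0529 and 0.0533.

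**Figure D3:**
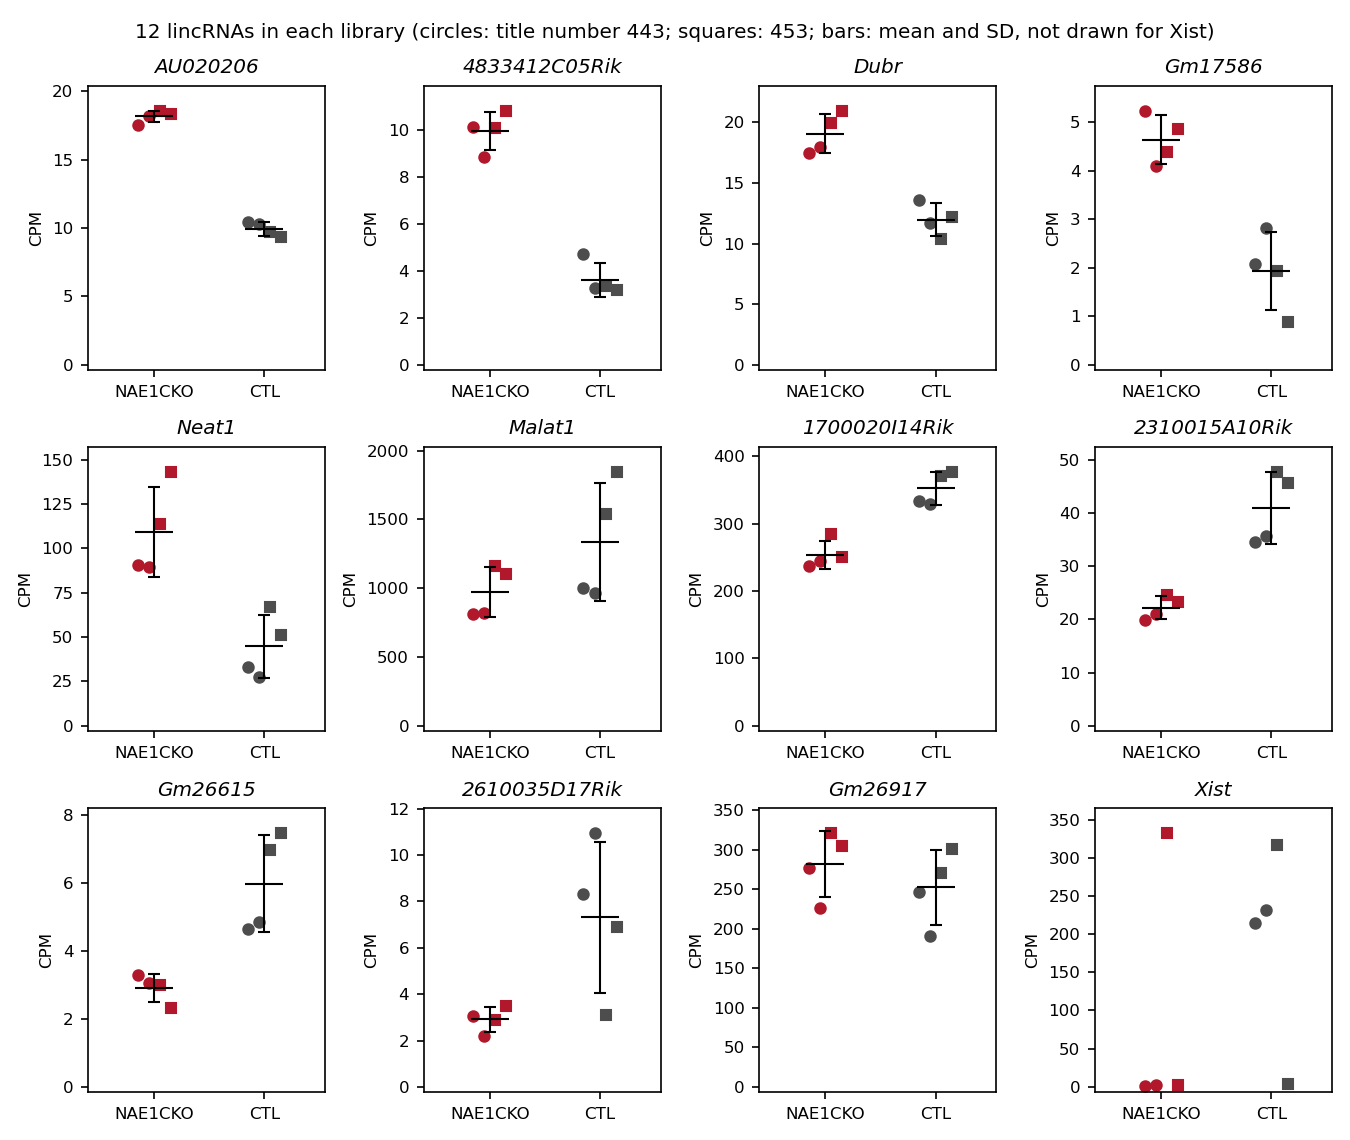
CPM of 12 lincRNAs in each library, NAE1CKO on the left and CTL on the right of each panel, with circles for KO-443 and WT-443, squares for KO-453 and WT-453, and bars for the mean and SD (n = 4). *AU020206* sits at 17.6 to 18.5 CPM in NAE1CKO and 9.31 to 10.5 CPM in CTL, whereas *Malat1* overlaps between the groups and *Xist* is high in 1 NAE1CKO and 3 CTL libraries.

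The member with the smallest adjusted p was *AU020206*, a lincRNA on chromosome 7 (75769038 to 75782099, minus strand) that lies 14429 bases past the end of *Akap13*. It had 17.6, 18.2, 18.5 and 18.4 CPM in NAE1CKO and 10.5, 10.3, 9.68 and 9.31 CPM in CTL. The spread within each group was small beside the gap between them, and the log2 fold change was 0.87 ± 0.08 (SE, 1.83-fold, adjusted p = 6.7e-06). *4833412C05Rik*, on the same chromosome (67784538 to 67804139, nearest to *Ttc23*), had 10.1, 8.87, 10.1 and 10.8 CPM in NAE1CKO, against 4.72, 3.26, 3.34 and 3.21 CPM in CTL. It was 2.74-fold higher (log2 fold change 1.45 ± 0.14, adjusted p = 1.5e-05), with no overlap.

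*Dubr* is a lincRNA that promotes the differentiation of skeletal muscle cells in mice by acting on its neighbour *Dppa2*. Here *Dubr* had 17.4, 17.95, 19.97 and 20.9 CPM in NAE1CKO and 13.6, 11.7, 10.4 and 12.2 CPM in CTL, and it was 1.60-fold higher (log2 fold change 0.67 ± 0.10, adjusted p = 2.8e-04). *Gm15328*, on chromosome 18 (16815721 to 16822783) with its start 6475 bases from that of *Cdh2*, the gene of the cardiomyocyte junction protein N-cadherin, had the largest rise. Its levels were low, at 3.61, 3.04, 6.32 and 4.80 CPM in NAE1CKO, against 0.945, 1.66, 1.76 and 1.61 CPM in CTL, and it was 2.95-fold higher (log2 fold change 1.56 ± 0.27, adjusted p = 7.1e-04). *Cdh2* itself was higher by 0.23 on the log2 scale (adjusted p = 0.00389).

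Of the other members higher past 1.5-fold, *9330158H04Rik* on chromosome 6 overlaps exons of *Chrm2*, the muscarinic receptor gene of the heart. It had 12.01, 11.0, 11.9 and 10.9 CPM in NAE1CKO and 7.37, 8.11, 5.27 and 6.50 CPM in CTL (log2 fold change 0.75 ± 0.13, adjusted p = 7.7e-04), and *Chrm2* had a log2 fold change of 0.62 (adjusted p = 0.00137). The sources used here give no strand setting for the counting, so the reads of such a pair cannot be told apart. *Gm12295* lies 7665 bases from *Myocd*, which codes for myocardin, a coactivator of muscle genes. It had 14.6, 11.3, 12.8 and 16.0 CPM in NAE1CKO, against 8.94, 7.99, 9.91 and 9.07 CPM in CTL (1.52-fold, log2 fold change 0.61 ± 0.12, adjusted p = 0.00208), while *Myocd* had a log2 fold change of -0.05 (adjusted p = 0.627).

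The other 4 members were higher by less than 1.5-fold, with no overlap between the groups. *1810058I24Rik*, which in mouse macrophages encodes a mitochondrial micropeptide, had 119, 121, 122 and 121 CPM in NAE1CKO and 97.3, 104, 96.6 and 104 CPM in CTL, so that a fold change of 1.20 passed (adjusted p = 0.0012). *4632415L05Rik*, *9530082P21Rik* and *Snhg18* had log2 fold changes of 0.52, 0.40 and 0.38.

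Among the lower members, *2310015A10Rik* on chromosome 12 (80120546 to 80132844, nearest to *Zfp36l1*) had both a high level and a large change. It had 19.9, 21, 24.6 and 23.3 CPM in NAE1CKO, against 34.6, 35.6, 47.6 and 45.7 CPM in CTL, with every NAE1CKO library below every CTL library. The log2 fold change was -0.88 ± 0.11 (SE, adjusted p = 1.3e-04). *1700020I14Rik*, which RefSeq names *Oip5os1* and which is also known as Cyrano, an RNA that binds miR-7 and brings about its decay in mice, had 237, 245, 284 and 250 CPM in NAE1CKO and 334, 329, 371 and 376 CPM in CTL. It was lower by less than 1.5-fold (log2 fold change -0.47 ± 0.07, adjusted p = 2.7e-04), and its neighbour *Oip5* had a log2 fold change of 0.53 with an adjusted p of 0.142.

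The member with the largest fall, *2610035D17Rik* on chromosome 11, had 3.07, 2.20, 2.89 and 3.47 CPM in NAE1CKO, against 8.31, 10.9, 3.11 and 6.90 CPM in CTL. One CTL library, WT-453-3, lay inside the NAE1CKO range (log2 fold change -1.33 ± 0.34, adjusted p = 0.0126), and the adjusted p was 0.0545 by limma-voom and 0.063 without the filter on low counts. *Gm26615*, on chromosome 4 near *Ahdc1*, had 3.28, 3.04, 3.01 and 2.32 CPM in NAE1CKO and 4.66, 4.86, 6.96 and 7.47 CPM in CTL (log2 fold change -1.03 ± 0.19, adjusted p = 0.0012), without overlap. *1700096K18Rik* on chromosome 5 had 2.26, 2.26, 2.71 and 2.65 CPM in NAE1CKO and 3.78, 3.57, 4.47 and 4.50 CPM in CTL (log2 fold change -0.72 ± 0.15, adjusted p = 0.00304). The other 7 members lower past 1.5-fold start beside a protein-coding gene and are described with it.

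Of the 69 members found in the annotation, 23 had the start of a protein-coding gene on the opposite strand within 1000 bases. Of these 23 members, 11 were lower, 2 were higher and 10 did not pass. Among the other 48 members 11 were lower, 10 were higher and 27 did not pass. The difference between the sets was not tested. Among genes with a mean count of 50 or more, 20% were higher and 19.1% lower. All 23 partners were tested, 8 of them higher, 7 lower and 8 not past the threshold. In 9 pairs both genes passed, in the same direction in 5 and in opposite directions in 4. Across the 23 pairs the log2 fold changes had a Pearson r of 0.41 and a Spearman rho of 0.06, and without the *Gm17586* and *Mafg* pair an r of 0.03 and a rho of -0.08. These are descriptions over pairs measured in the same 8 libraries.

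**Figure D4:**
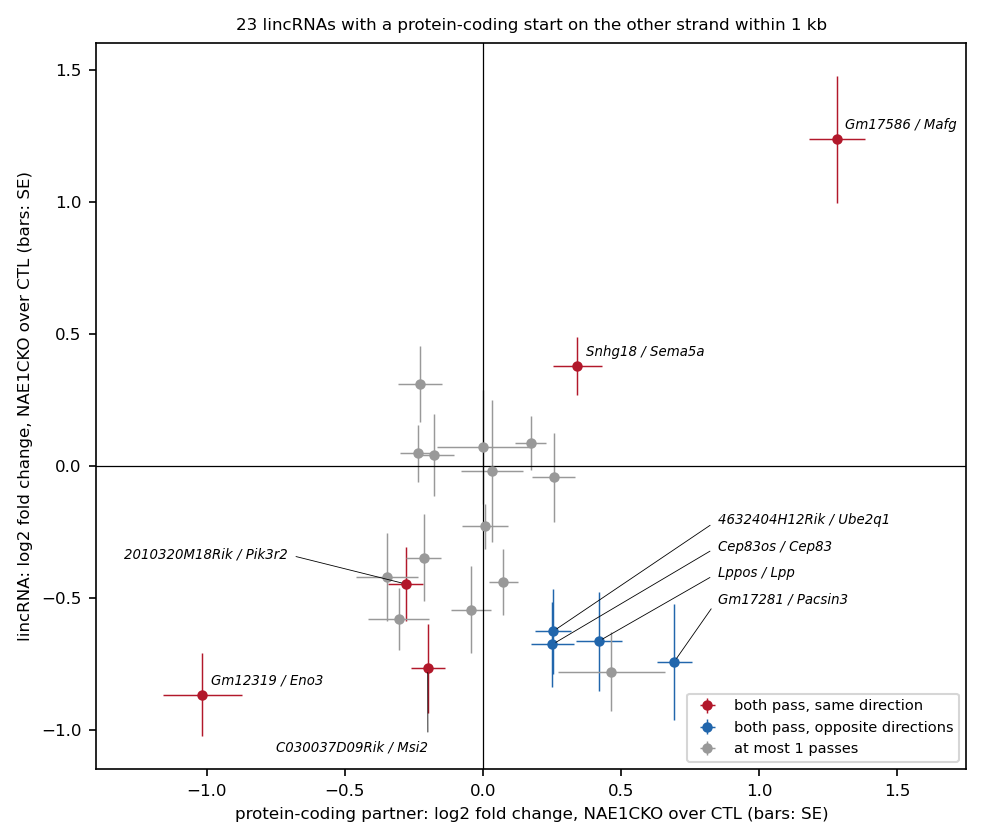
Log2 fold change of NAE1CKO over CTL for 23 lincRNAs (vertical axis) and for the protein-coding gene that starts within 1 kb on the other strand (horizontal axis), with standard errors. Pairs in red passed in the same direction, with *Gm17586* and *Mafg* at the upper right and *Gm12319* and *Eno3* at the lower left, and the 4 pairs in blue passed in opposite directions.

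*Gm17586* starts 168 bases from *Mafg* on chromosome 11 (120633768 to 120635125). *Mafg* codes for a small MAF protein, a partner of NRF2, and its start lies inside the promoter window of *Gm17586* printed above. *Gm17586* had 5.22, 4.09, 4.39 and 4.85 CPM in NAE1CKO and 2.08, 2.83, 1.93 and 0.883 CPM in CTL, with the lowest NAE1CKO library above the highest CTL library. It was 2.35-fold higher (log2 fold change 1.24 ± 0.24, adjusted p = 0.00178). *Mafg* had 86.1, 82.5, 100.1 and 116 CPM in NAE1CKO, against 40.9, 40.8, 40.6 and 35.7 CPM in CTL, with a log2 fold change of 1.28 ± 0.10 (adjusted p = 4.8e-06). Both genes thus rose by like amounts, at very different levels. *Snhg18* and *Sema5a*, a semaphorin gene whose start is 148 bases away, were the other pair that rose together, by 0.38 and 0.34 on the log2 scale.

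In 3 pairs both genes fell. *Gm12319* has its start 709 bases from that of *Eno3*, the gene of the muscle enolase of glycolysis, and lies 97 bases from *Pfn1* on its other side. It had 2.91, 3.67, 2.83 and 2.43 CPM in NAE1CKO, against 4.85, 5.10, 5.83 and 5.86 CPM in CTL (log2 fold change -0.87 ± 0.16, adjusted p = 0.00108). *Eno3* had 471, 504, 511 and 347 CPM in NAE1CKO and 766, 860, 1089.8 and 990.5 CPM in CTL (log2 fold change -1.02 ± 0.14, adjusted p = 6.1e-04), whereas *Pfn1* was higher by 0.26 (adjusted p = 0.00161). *C030037D09Rik*, 132 bases from the RNA-binding protein gene *Msi2*, had 4.47, 5.14, 5.17 and 3.03 CPM in NAE1CKO and 7.62, 6.76, 7.19 and 8.83 CPM in CTL (log2 fold change -0.77 ± 0.17, adjusted p = 0.00376), beside -0.20 for *Msi2* (adjusted p = 0.0239). *2010320M18Rik* and *Pik3r2*, a regulatory subunit of PI3-kinase, had log2 fold changes of -0.45 and -0.28.

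In 4 pairs the lincRNA fell and the protein-coding gene rose. *Gm17281* overlaps exons of *Pacsin3*, which codes for a protein that shapes membranes, and starts 41 bases from it. *Gm17281* had 2.26, 3.04, 3.25 and 1.76 CPM in NAE1CKO, against 3.27, 3.81, 5.27 and 4.90 CPM in CTL (log2 fold change -0.74 ± 0.22, adjusted p = 0.0192). *Pacsin3* had 88.7, 85.6, 86.9 and 94.2 CPM in NAE1CKO and 54.7, 60.9, 53.6 and 50.6 CPM in CTL (log2 fold change 0.69 ± 0.06, adjusted p = 8.5e-06). The highest NAE1CKO library and the lowest CTL library of *Gm17281* were almost level, and the call was lost without KO-443-3 (adjusted p = 0.057) or without WT-453-3 (adjusted p = 0.0646).

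*Lppos* starts 81 bases from *Lpp*, which codes for a LIM domain protein of cell adhesions, and the pair overlaps in exons. *Lppos* had 2.48, 1.94, 3.07 and 2.65 CPM in NAE1CKO and 3.02, 4.30, 4.08 and 4.66 CPM in CTL (log2 fold change -0.66 ± 0.19, adjusted p = 0.0151), with KO-453-6 just above WT-443-7. *Lpp* was higher by 0.42 ± 0.08 on the log2 scale (adjusted p = 0.00181). *Cep83os* starts 78 bases from *Cep83*, the gene of a centriole protein. It had 9.21, 9.13, 7.94 and 5.79 CPM in NAE1CKO, against 12.3, 15.7, 10.5 and 12.8 CPM in CTL (log2 fold change -0.68 ± 0.16, adjusted p = 0.00584), and *Cep83* was higher by 0.25 ± 0.08 (adjusted p = 0.0248). *4632404H12Rik*, 376 bases from the ubiquitin-conjugating enzyme gene *Ube2q1*, had 3.72, 3.52, 5.29 and 4.24 CPM in NAE1CKO and 5.16, 6.76, 6.91 and 6.98 CPM in CTL (log2 fold change -0.62 ± 0.16, adjusted p = 0.00927), and *Ube2q1* was higher by 0.25 ± 0.07 (adjusted p = 0.00911). Of these 4 pairs, only *Gm17281* and *Lppos* share exon bases with their partner.

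*A430046D13Rik*, 679 bases from the myosin light chain gene *Myl6b*, had 2.96, 3.15, 2.89 and 2.65 CPM in NAE1CKO, against 5.48, 4.24, 5.72 and 4.50 CPM in CTL (log2 fold change -0.78 ± 0.15, adjusted p = 0.00162), while *Myl6b* had a log2 fold change of 0.46 (adjusted p = 0.0788). The nearest protein-coding gene at any distance was tested for 57 members. Of the 9 higher members among them, 7 had a neighbour that was higher and 2 one that did not pass. Of the 19 lower members, 5 had a lower neighbour, 6 a higher one and 8 one that did not pass. Over all 57 neighbours 15 were higher, 14 lower and 28 did not pass. Among genes with a mean count of 50 or more, 20% were higher and 19.1% lower. Pairs described above are counted here again. *Mafg* and *Sema5a* are among the 7, as is *Chrm2*, whose exons its member overlaps. The log2 fold changes of the 57 pairs had a Pearson r of 0.32 and a Spearman rho of 0.15.

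*Bvht* (Braveheart), needed in mouse embryonic stem cells for commitment to the cardiac lineage, had 3.28, 2.78, 4.33 and 3.80 CPM in NAE1CKO and 3.46, 3.20, 3.00 and 2.33 CPM in CTL (log2 fold change 0.23 ± 0.18, adjusted p = 0.353), and the groups overlapped. It was the only one of 14 cardiac and muscle noncoding RNAs on the list that is a member. *5033428I22Rik*, 7485 bases from the heart transcription factor gene *Hand2* and named here for that place after its values were seen, had a log2 fold change of -0.21 (adjusted p = 0.171). *1010001N08Rik*, which overlaps exons of *Gata6*, another cardiac transcription factor gene, and was likewise chosen after its values were seen, had 7.16, 6.25, 5.65 and 7.50 CPM in NAE1CKO, against 9.82, 10.9, 9.34 and 9.63 CPM in CTL. It was lower (log2 fold change -0.58 ± 0.12, adjusted p = 0.00219), beside -0.31 for *Gata6* (adjusted p = 0.0534).

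Hosts of small RNAs were measured as polyadenylated host RNA, and the small RNAs themselves were not analysed here. By the annotation, 3 members hold a microRNA hairpin on their own strand, *6720427I07Rik* (let-7a-1, let-7f-1 and let-7d), *2900076A07Rik* (miR-1839) and *Snhg20* (miR-6516). The mature microRNAs are given because they are what these hosts are known to yield, as RefSeq has them on GRCm38.p6, with the seed (bases 2 to 8) in capitals. For let-7 the arm with the shared seed is shown.
mmu-let-7a-5p: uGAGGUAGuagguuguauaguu
mmu-let-7f-5p: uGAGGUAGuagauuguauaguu
mmu-let-7d-5p: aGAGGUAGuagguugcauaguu
mmu-miR-1839-5p: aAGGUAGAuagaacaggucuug
mmu-miR-6516-5p: uUUGCAGUaacagguguggaca
mmu-miR-6516-3p: uCAUGUAUgauacugcaaacag
The 3 let-7 microRNAs share the seed GAGGUAG, while miR-1839-5p has the seed AGGUAGA. Their hosts were both lower, and both were named for these microRNAs after their values were seen. *6720427I07Rik* had 3.23, 4.36, 5.41 and 4.80 CPM in NAE1CKO and 6.17, 7.56, 5.72 and 6.58 CPM in CTL (log2 fold change -0.55 ± 0.16, adjusted p = 0.0204). *2900076A07Rik* had 13.4, 15.8, 13.7 and 13.6 CPM in NAE1CKO, against 19.96, 15.9, 23.5 and 21.3 CPM in CTL (log2 fold change -0.51 ± 0.12, adjusted p = 0.00428). Both differences held in each library without overlap, although the lowest CTL library of *2900076A07Rik* was close to the highest of NAE1CKO. *Snhg20* had overlapping groups (log2 fold change -0.13 ± 0.13, adjusted p = 0.454).

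Of 9 genes for microRNA processing proteins, 8 were tested, where 18.6% of all genes tested were higher and 17.6% lower. *Ago4* and *Tarbp2*, whose proteins load small RNAs, were lower, with log2 fold changes of -0.56 and -0.32 (adjusted p = 0.00218 and 0.00596), *Dicer1* was higher by 0.13 (adjusted p = 0.0495), and 5 did not pass. Of these 5, *Ago1*, *Xpo5* and *Ago2* had adjusted p of 0.178, 0.299 and 0.300.

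The 5 members on the list of snoRNA hosts were *Snhg6*, *Snhg12*, *Snhg18*, *Snhg20* and *Epb41l4aos*. Such hosts carry snoRNAs in their introns, and their spliced RNAs are typically short-lived because nonsense-mediated decay removes them. Only *Snhg18* passed, with 11.4, 12.3, 12.3 and 15.05 CPM in NAE1CKO, against 10.3, 9.90, 8.61 and 10.5 CPM in CTL (log2 fold change 0.38 ± 0.11, adjusted p = 0.0184), and its adjusted p was 0.0594 without WT-453-3. *Snhg6* had 12.6, 14.4, 13.5 and 13.0 CPM in NAE1CKO and 11.7, 13.2, 8.83 and 9.31 CPM in CTL. Its adjusted p was 0.0691, and it was 0.0282 with title number as a block. *Snhg12* and *Epb41l4aos* had log2 fold changes of 0.03 and 0.12 (adjusted p = 0.922 and 0.645).

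None of 10 genes of nonsense-mediated decay proteins passed the edgeR test, and *Upf3b* had the smallest adjusted p (0.083, log2 fold change -0.21). Of 17 genes of the nuclear RNA exosome and its cofactors, which degrade unstable nuclear transcripts, 16 were tested. *Dis3*, a catalytic subunit, was higher by 0.50 ± 0.07 on the log2 scale (adjusted p = 2.6e-04). The other 15 did not pass, among them *Exosc4* (-0.16, adjusted p = 0.0611), *Pabpn1* (0.24, adjusted p = 0.0929) and *Exosc10* (-0.12, adjusted p = 0.219). Beside both lists, 18.6% of all genes tested were higher and 17.6% lower.

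*Xist* split the libraries across the genotypes. It had 1.02, 2.05, 332 and 1.87 CPM in the NAE1CKO libraries, and 215, 232, 317 and 3.21 CPM in the CTL libraries. The Y-linked genes ran the other way. *Ddx3y* had 44.3, 46.8, 0.301 and 44.9 CPM in NAE1CKO, against 0.0630, 0.615, 0.396 and 37.9 CPM in CTL. By *Xist* and the Y-linked genes the libraries were therefore not balanced for sex, with 1 *Xist*-high, female library in NAE1CKO and 3 in CTL. Under the lower title number both NAE1CKO libraries were male and both CTL libraries female by these genes. The genotype difference there cannot be separated from a sex difference, for any member. The fitted log2 fold change of *Xist*, -1.20 ± 1.91, had an adjusted p of 0.668. Without KO-453-6, the only *Xist*-high NAE1CKO library, it was -6.86 with an adjusted p of 0.0349, and limma-voom on all libraries gave -4.01 (adjusted p = 0.338). The part of the sex imbalance in the values of the other members was not tested.

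*Gm26917*, the third member by CPM, lies on chromosome 17 (39843013 to 39846341) just before a locus that RefSeq names *Rn18s-rs5*, an 18S rRNA-related sequence with *Gm42418* among its synonyms. *Gm26917* had 277, 226, 321 and 305 CPM in NAE1CKO and 247, 190, 271 and 301 CPM in CTL, and the groups overlapped (log2 fold change 0.16 ± 0.15, adjusted p = 0.441). The library in which *Gm42418* stood apart, WT-453-5, was the highest of CTL at 301 CPM but inside the NAE1CKO range. *C330006A16Rik*, the seventh by CPM and a pseudogene of *Tmem250* by its annotated name, had 44.0, 46.7, 51.8 and 46.4 CPM in NAE1CKO, against 53.7, 55.5, 65.4 and 57.3 CPM in CTL (log2 fold change -0.30 ± 0.07, adjusted p = 0.00769). Its adjusted p was 0.0536 when libraries were scaled by size alone.

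The remaining lower members were *BC043934*, *Gm26795*, *Gm16576*, *A530017D24Rik* and *Fam120aos*, with log2 fold changes from -0.58 to -0.44. The 2 members at the lower limit of level that were not yet given, *Gm26798* and *Gm14230*, had log2 fold changes of -0.09 and 0.07 (adjusted p = 0.712 and 0.818) and overlapping groups. *Lockd*, transcribed downstream of the cell cycle inhibitor gene *Cdkn1b*, was chosen after its values were seen for its spread, with 8.08, 9.08, 10.04 and 3.14 CPM in NAE1CKO and 9.13, 11.2, 4.81 and 6.42 CPM in CTL. In the same libraries the summed level of the proliferation markers *Mki67* and *Top2a* was 211, 237, 250.2 and 78.0 CPM in NAE1CKO and 135, 191, 144 and 176 CPM in CTL, so that KO-453-7 was lowest in both. The part of proliferation in the *Lockd* values was not tested.

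All 34 members that passed had the same sign of the difference within each title number. They were called on these same libraries, and only 5 of them had groups that overlapped. Where the groups do not overlap, the same sign under both numbers is fixed beforehand, so it is no separate support. By *Xist* and *Ddx3y*, the lower title number set male NAE1CKO libraries against female CTL libraries. Its difference therefore holds genotype and sex together. Under the higher number each genotype had a male and a female library. The test of the difference between the numbers (edgeR, genotype by title number) called 0 of the 71 members and 0% of all genes tested, with a smallest adjusted p of 0.344 for *6430562O15Rik* and 10 members at an unadjusted p under 0.05. With 2 libraries of each genotype per title number, a difference that did not pass is not shown to be absent. With title number as a block, 39 members passed, among them all 34.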

How the data were processed

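Libraries of polyadenylated ventricle RNA were sequenced on an Illumina HiSeq by the authors. STAR 2.0.4b, featureCounts 1.4.5, Subread and bcl2fastq are listed in the submitters' processing notes. Genome build, annotation and strandedness: not given in the sources used here. Raw counts per gene were deposited by the authors for the 8 libraries in 1 table of 41264 lines, from which 574 lines that only repeated another line's gene and counts were removed. No sample column was left unused (0). Depth per library is given with the results, and counts without molecular identifiers carry more error than counting alone. The labels do not say more of the replicates than that they are separate samples, and within a group any pair differed by more than sampling noise (chi-square of 4.02 to 67.2 per gene). Pairs with WT-453-5 had 59.5 to 67.2 and the other pairs 4.02 to 16.5, with *Gm42418* among the genes included.

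Counts were filtered with filterByExpr, scaled by TMM and fitted with edgeR 4.0.16 (R 4.3.3; glmQLFit, robust, and glmQLFTest), with Benjamini-Hochberg adjustment over all genes tested. The SE of a log2 fold change was derived from its F statistic. The fit was tested on simulated data. Positions, overlaps and neighbours came from GENCODE M21 (GRCm38), matched by gene ID for 69 of the 71 members (56 as lincRNA, 11 as another noncoding type and 2 as protein-coding), and 29 of the 69 share exon bases with another gene. Promoters and microRNAs came from RefSeq. Members and lists were chosen with earlier results of these data known. Named were members past the threshold and 1.5-fold, the 8 highest by CPM, members of the role lists, the 3 genes on each side of the count limit and up to 6 genes of each other list; other members that passed were named after their values were seen. Alternatives were other scalings, DESeq2 1.42.0, limma-voom (limma 3.58.1), other filters, a title number block, other member limits and leaving out each library.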

Additional observations from a re-analysis of the deposited data

Results flagged for a closer look

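In each group of 4 libraries, the highest and the lowest value of 33 named members was compared with the other 3, and 4 of 66 groups had a library far from the rest; chance gives about 1 in 20. *Xist* had 332 CPM in the NAE1CKO library KO-453-6 and 1.02 to 2.05 CPM in the other 3. *Epb41l4aos* had 3.67 CPM in the same NAE1CKO library and 5.44 to 5.79 CPM in the other 3. *4833412C05Rik* had 4.72 CPM in the CTL library WT-443-7, where the other CTL libraries had 3.21 to 3.34 CPM, still below every NAE1CKO library. *4632404H12Rik* had 5.16 CPM in that CTL library and 6.76 to 6.98 CPM in the other 3, so that it fell inside the NAE1CKO range.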

How the results depend on the processing

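The counts of members higher and lower (12 and 22) stayed within 1.5 times under the other scalings, tests and filters, and 30 to 34 of the 34 calls were shared with no change of sign. Leaving out 1 library gave 12 to 13 members higher and 19 to 21 lower, 7 to 8 and 10 to 13 past 1.5-fold, and a median log2 fold change of -0.22 to -0.15, beside -0.14 with all libraries. That median was -0.052 with library size alone and -0.17 with upper quartile scaling, where the median of all genes tested was 0.080 and -0.030. It was -0.18 without *Gm42418* and *Gm26917*, a setting chosen after seeing the data. The lower count changed with the number of members, with 34 lower (23 past 1.5-fold, median -0.22) of 128 members at 20 and 9 lower (2 past 1.5-fold, median -0.026) of 38 at 100. With other noncoding biotypes it was 53 (26 past 1.5-fold) of 173. Of the 40 members with no exon overlap 14 were lower, 5 were higher past 1.5-fold, and the median was -0.18. At an adjusted p of 0.01, 14 were lower. The groups share no replicate numbers, but both hold each title number, and the fit with title number as a block gave 14 higher and 25 lower. Among named members no value that passed in either fit changed sign (*Snhg12*, *Gm26798* and *Gm14230*, near 0 and not past, did so under some settings); *C330006A16Rik*, *2610035D17Rik*, *Gm17281* and *Snhg18* lost their call under at least 1 setting, and *Snhg6*, *Malat1* and *Xist* gained one (*Xist* without KO-453-6, log2 fold change -6.86, adjusted p = 0.0349). Where no reason is plain from the setting itself, the cause was not tested. Members near 3 CPM rest on about 50 counts a library, which limits their precision.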

Other observations

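*E330017L17Rik*, a lincRNA just under the limit on the mean count and so not a member, had raw counts of 29, 27, 32 and 26 in NAE1CKO and 62, 78, 57 and 62 in CTL. All 4 NAE1CKO libraries were below all 4 CTL libraries, as in 19.3% of the genes with a mean count of 50 or more. It is given after its values were seen. The other lincRNAs just under the limit had groups that overlapped. *Gm28730* had 47, 59, 49 and 72 in NAE1CKO and 36, 44, 53 and 28 in CTL. *2700046G09Rik* had 46, 52, 34 and 30 in NAE1CKO and 55, 58, 70 and 37 in CTL. *H19*, an imprinted lincRNA left out of the members, took 0.346% to 0.475% of the counts in NAE1CKO libraries and 0.241% to 0.384% in CTL libraries, and the groups overlapped.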
